A study of Caenorhabditis elegans with 2 samples.

Results

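Weaker peaks of CEH-18 binding are described here, chosen by the deposited −log10 q of each peak. A weaker peak had a −log10 q of at least 2 in the list made from both replicates pooled and was not in the list that passed the irreproducible discovery rate (IDR) step, which compares the ranks of peaks between replicates. The rule gave 2437 of the 28466 pooled peaks. The 2575 peaks of the IDR list are called thresholded below, and the other 23454 pooled peaks had a −log10 q under 2. The data come from chromatin immunoprecipitation and sequencing of whole Caenorhabditis elegans hermaphrodites of strain OP533, taken as late embryos 3 h after synchronisation by egg bleaching. Their genotype was unc-119(tm4063) III with the integrated transgene wgIs533, which carries CEH-18 with a GFP-FLAG tag at its C-terminus. An anti-GFP antibody is given in the description of the experiment, while the antibody field reads ceh-18. There was 1 group of 2 biological replicates, so no condition was compared, and every replicate carried the mutation and the transgene. Whole embryos hold all cell types, so no peak can be placed in a tissue. The files list peaks and not reads, so the depth is unknown, and the signal of a peak is the authors' value on an unstated scale.

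CEH-18 is a POU-class homeodomain transcription factor, known for its roles in the gonadal sheath, in oocyte maturation and in the epidermis. POU proteins bind DNA through a POU-specific domain and a homeodomain, and the octamer ATGCAAAT is their classic site. In peak calling, a q value limits the false calls within a list, whereas IDR asks for like ranks in both replicates. In these lists the thresholded peaks held ranks 1 to 2575 by pooled signal, and the weaker peaks ranks 2576 to 5012. The 2 sets were thus split at 1 pooled signal, and a weaker peak need not have had unlike ranks in the replicates.

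Sequences of 3 kinds show what these peaks looked like. They are windows of 151 bp centred on the summit, read from the WBcel235 (ce11) assembly of RefSeq, plus strand, 5′ to 3′. The first 3 are, on the chromosomes shown here, the strongest weaker peaks that hold GAGAGA on either strand and touch no annotated exon, and GAGAGA or its reverse complement is in capitals. The first lay in an intron whose nearest protein-coding 5′ end, 32607 bp away, was that of the potassium channel gene exp-2 (chrV:6163932-6164082). Which gene holds that intron was not identified here. The second lay upstream of klf-1, which encodes a Krüppel-like factor (chrIII:2871854-2872004), and the third in intergenic sequence nearest to sup-35 (chrIII:11112850-11113000).
exp-2: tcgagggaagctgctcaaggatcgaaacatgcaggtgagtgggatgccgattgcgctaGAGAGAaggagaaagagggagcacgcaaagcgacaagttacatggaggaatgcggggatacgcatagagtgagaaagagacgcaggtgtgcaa
klf-1: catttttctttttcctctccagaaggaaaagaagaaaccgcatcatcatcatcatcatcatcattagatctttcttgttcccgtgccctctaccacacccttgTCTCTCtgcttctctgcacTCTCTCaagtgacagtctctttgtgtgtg
sup-35: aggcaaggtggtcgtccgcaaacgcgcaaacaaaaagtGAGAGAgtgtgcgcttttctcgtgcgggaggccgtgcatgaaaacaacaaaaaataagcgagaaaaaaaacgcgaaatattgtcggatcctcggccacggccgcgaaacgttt

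The next 3 sequences are the strongest weaker peaks that hold the octamer under the same limits, with the octamer in capitals. They lay in the promoter window of smc-5, a gene of the SMC complex of DNA repair (chrII:5061916-5062066), in an intron nearest to scd-1 (chrX:12519220-12519370) and in the promoter window of Y41E3.1 (chrIV:14959613-14959763).
smc-5: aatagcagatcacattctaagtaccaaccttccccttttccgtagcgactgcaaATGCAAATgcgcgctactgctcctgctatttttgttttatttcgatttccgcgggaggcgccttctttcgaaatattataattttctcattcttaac
scd-1: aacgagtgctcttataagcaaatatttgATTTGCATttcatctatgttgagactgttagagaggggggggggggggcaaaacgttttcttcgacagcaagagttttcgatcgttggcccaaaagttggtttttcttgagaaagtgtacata
Y41E3.1: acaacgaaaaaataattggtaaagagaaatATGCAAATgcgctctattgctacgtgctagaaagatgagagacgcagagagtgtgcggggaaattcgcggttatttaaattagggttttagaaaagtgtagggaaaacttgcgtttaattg

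The last 2 sequences are, under the same choice of chromosomes, the strongest weaker peaks in coding exons whose window lay wholly in coding sequence, a location that thresholded peaks nearly lacked. They lay in dpy-17, which encodes a cuticle collagen (chrIII:5108051-5108201), and in cut-2, which encodes a cuticle protein (chrV:13415637-13415787). Neither held GAGAGA, so nothing is in capitals, and their GC contents were 58.3% and 66.9%.
dpy-17: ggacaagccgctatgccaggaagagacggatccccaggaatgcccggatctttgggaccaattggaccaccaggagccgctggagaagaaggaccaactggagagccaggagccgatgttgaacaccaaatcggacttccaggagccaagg
cut-2: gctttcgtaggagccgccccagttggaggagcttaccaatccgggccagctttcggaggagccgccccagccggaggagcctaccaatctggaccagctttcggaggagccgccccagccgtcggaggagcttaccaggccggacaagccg

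The weaker peaks filled a narrow range of the pooled list. Their signal ran from 72.6 to 114.2 with a median of 87.7, and their −log10 q from 2.01 to 3.24. By signal they held ranks 2576 to 5012. The values were the basis of the choice and are a description. At the upper edge, the last thresholded peak, upstream of nhr-237, and the first weaker peak, in an intron nearest to catp-7, both had a signal of 114.22 to 2 decimals. At the lower edge, the last weaker peak, 170 bp upstream of T09F3.4, had a signal of 72.57 and the next peak, near plr-1, had 72.55 with a −log10 q of 1.997. There was no gap at either edge, so the members just inside and just outside differed by less than 0.1 in signal. Most members, 98.9%, had the same width of 484 bp.

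**Figure D1:**
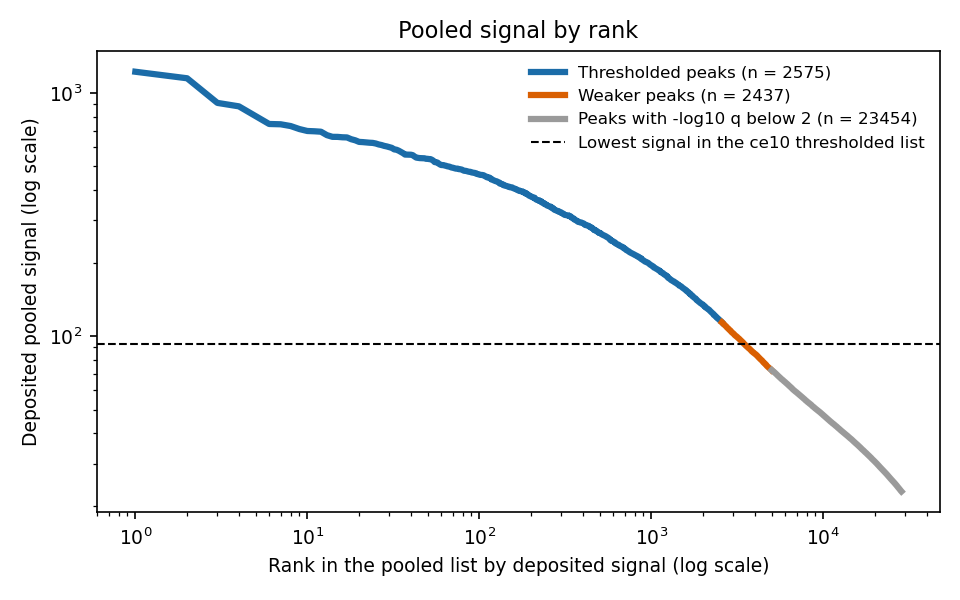
Deposited pooled signal against rank in the pooled ce11 list, both on log scales, for thresholded peaks (blue), weaker peaks (orange) and peaks with −log10 q under 2 (grey). The dashed line is the lowest signal in the thresholded ce10 list, 92.7, and it crosses the orange segment.

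The upper edge depended on the build. On ce10 the deposited thresholded list held 3485 peaks, 910 more than on ce11, and reached down to a signal of 92.7. The same rule then left 1526 weaker peaks on ce10. Of the ce11 weaker peaks, 911 (37.4%) had a signal at or above that ce10 limit and 1526 were below it. These are called the upper and the lower band of weaker peaks below. No coordinates were moved between builds, so which of the 911 were in the ce10 list was not analysed here.

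The 20 strongest members lay at genes of many kinds, both in promoter windows and outside them. Over the whole upper band 42.3% of summits lay in a promoter window, against 36.2% in the lower band. The intronic summit nearest to catp-7, a cation-transporting ATPase gene (chrIV:8586998-8587481), had a pooled signal of 114.2, with 71.8 in replicate 1 and 49.3 in replicate 2. The summit upstream of acs-2, an acyl-CoA synthetase gene, had 114.2, 59.1 and 51.1 in the same order. Both genes had a peak in each replicate, and the replicates differed less at acs-2. Upstream of pygo-1, the worm gene of the Wnt cofactor Pygopus, the pooled signal was 114.1 with 66.2 and 59.0 in the replicates. At gsp-1, a catalytic subunit of protein phosphatase 1, it was 114.1 with 59.97 and 50.95, in the promoter window. In these 4 cases replicate 1 was higher. At the intronic peak nearest to exp-2 the pooled signal was 114.1. Replicate 1 had 74.5 there and replicate 2 had 36.1, the widest gap among the 20 strongest members.

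Other members of the strongest 20 went the other way. Upstream of F37F2.2 replicate 1 had 50.3 and replicate 2 had 70.01. In an intron nearest to bre-3, a glycosyltransferase gene of glycosphingolipid synthesis, the replicates had 46.3 and 63.3. Near sup-35 the replicates were close, at 53.4 and 56.5. Further members of the 20 were nearest to ZK112.4, ubc-20 (a ubiquitin-conjugating enzyme), F38B7.3, rilp-1, klf-1, lin-14 (a heterochronic regulator), vps-37 (an ESCRT-I subunit), ire-1 (a sensor of the unfolded protein response) and fip-4. The remaining 3 of the 20, near dnj-5, Y43F8C.3 and pod-2 (acetyl-CoA carboxylase), had a thresholded summit 256, 200 and 199 bp away. The 5 members of lowest signal were nearest to abu-12, pde-2, Y75B8A.7, F56A8.3 and T09F3.4, with pooled signals of 72.6.

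By location, the weaker peaks kept the preference for promoters, less strongly. They lay in coding exons more often than thresholded peaks did, and less often than genome bases. The promoter window ran from 1000 bp upstream to 200 bp downstream of the 5′ end of a protein-coding gene. It held 937 weaker summits (38.4%, exact 95% interval 36.5 to 40.4), against 44.7% of thresholded summits, 23.3% of the peaks with −log10 q under 2 and 21.5% of genome bases. The share was lower than among thresholded summits (two-sided Fisher's exact test, adjusted p = 3.2e-05 over 19 location features). The difference was not found with replicate 2's own list. Of its peaks that passed the same q limit clear of thresholded peaks, 45.5% were in a promoter window (Fisher's exact test, adjusted p = 0.71). That set held 1215 peaks, and the one from replicate 1's list, at 32.2%, held 2203. The sets differed in size and in the scale of q, and the part of either in this difference was not tested. Summits in 2 or more promoter windows at once, as between divergent genes, were 9.89% of weaker and 13.0% of thresholded summits (Fisher's exact test, adjusted p = 0.002). That direction turned without replicate 1, at 14.2%. Summits are not replicates, so these p-values describe this pooled list and not the spread between cultures.

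Introns held 24.1% of weaker and 24.2% of thresholded summits, and intergenic sequence 27.1% and 29.1%, with adjusted p of 0.97 and 0.18 by Fisher's exact test. The X chromosome, 17.7% of the genome's length, held 503 weaker summits (20.6%) and 22.1% of thresholded summits (Fisher's exact test, adjusted p = 0.3). Per megabase there were 28.4 weaker summits on X, and between 18.5 on V and 28.9 on I on the autosomes. Weaker summits had a median distance of 1136 bp from the closest protein-coding 5′ end, thresholded summits 1034 bp and the remaining peaks 1669 bp. Weaker summits therefore lay between the other 2 sets in distance, and nearer to the thresholded ones.

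**Figure D2:**
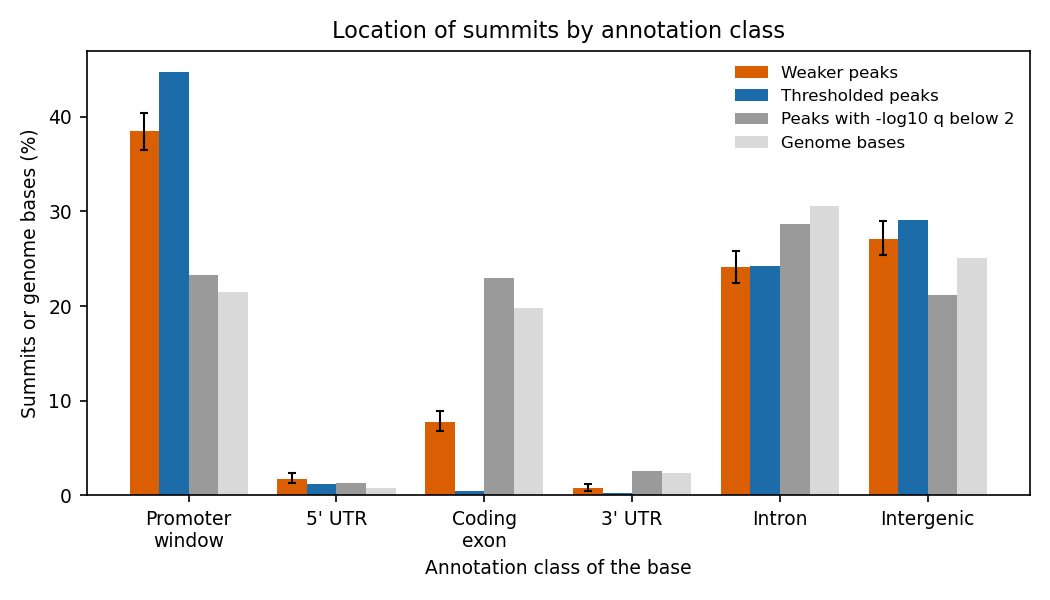
Share of summits or genome bases (%) in each annotation class, for weaker peaks, thresholded peaks, pooled peaks with −log10 q under 2 and all genome bases; black bars are exact 95% intervals of the weaker share. Coding exons hold 7.80% of weaker and 0.466% of thresholded summits.

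The largest difference in location was in coding exons. They held 190 weaker summits (7.80%, exact 95% interval 6.76 to 8.93) and 12 thresholded summits (0.466%), a ratio of 16.7 (Fisher's exact test, adjusted p = 5.5e-45). Coding exons outside promoter windows make up 19.8% of the genome and held 22.97% of the peaks with −log10 q under 2, so the weaker share was below both. Within the weaker peaks the share rose as the signal fell, from 3.73% in the upper band to 10.2% in the lower band. It also differed between the matching sets from single replicates, which were unequal in size. The set from replicate 1's own list had 271 of 2203 summits there, and that from replicate 2's own list 56 of 1215 (4.61%). Both were above the thresholded share. The 190 summits lay in 182 genes, of which C28A5.6, Y53F4B.9, dmd-6, jmjd-2, sca-1, sea-2, taf-3 and tln-1 had 2 each.

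Genes of the cuticle were frequent among these coding-exon summits, a pattern looked for after the values were seen and so given with no test. Of the 190, 29 (15.3%) lay in collagen genes named col and 9 (4.74%) in genes of a list of other cuticle genes, 38 (20%) in all. Among the 5388 coding-exon summits with −log10 q under 2 the share was 2.99%, and of all protein-coding exon bases 0.913% belong to these genes. The share was 21.4% (12 of 56) in the set from replicate 2's own list and 50 of 271 in that from replicate 1's, so the share was near 20% with either library left out. Counted by gene, 29 of 156 col genes and 9 of 39 cuticle genes had such a coding-exon summit. In the promoter window, 3 of the 156 col genes (1.92%) and 0 of the 39 cuticle genes had a weaker summit. Of all protein-coding genes 5.88% had one there.

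At dpy-17, a collagen gene of body shape, the summit lay 796 bp downstream of the 5′ end, with a pooled signal of 107.0 and 51.7 and 54.9 in replicates 1 and 2. At cut-2 the pooled signal was 105.5 with 66.9 and 39.1, and at col-108 it was 101.5 with 45.1 and 56.5. Others were bli-1 at 89.3, sqt-3 at 87.7, dpy-7 at 85.7, bli-6 at 84.2, ram-2 at 81.4, dpy-9 at 80.6 and dpy-14 at 77.4 in pooled signal, all genes of cuticle structure. These 38 windows had a median GC content of 61.6%, against 52.3% for the other 152 coding-exon windows and 45.7% over all weaker summits. Collagen genes share repeated coding sequence, and the treatment of reads with several matches is unstated, so the values of single col genes are uncertain. The part that GC content or shared sequence plays in these peaks was not tested.

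Other coding-exon summits of high signal, named after their values were seen, lay in Y43F4A.1 (pooled 110.1, replicates 53.01 and 54.96), taf-3, a subunit gene of the general factor TFIID (109.9, 46.3 and 60.6), and the muscle formin gene fhod-1 (105.5, 39.6 and 55.7). The homeobox gene ceh-22, of the pharynx muscle, had a coding-exon summit at 103.8 with 48.4 and 54.1 in the replicates. Among the POU genes themselves, ceh-6 had 1 weaker summit, in a coding exon 398 bp downstream of its 5′ end, with a pooled signal of 74.1 and 32.7 and 41.3 in the replicates. No weaker summit lay in the body or promoter window of ceh-18 or unc-86. The nearest to ceh-18 was 29868 bp upstream of its 5′ end. An intron of unc-119, the marker gene of the strain, held 1 weaker summit with a pooled signal of 81.04, and 45.96 and 32.5 in the replicates.

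Near tRNA, snoRNA and other ncRNA genes, the weaker peaks had lower shares than the thresholded ones, and near miRNA and piRNA genes they did not. Within 200 bp of a tRNA gene lay 66 weaker summits (2.71%) and 6.45% of thresholded summits (Fisher's exact test, adjusted p = 2.2e-09), against 0.793% of the remaining peaks and 0.272% of genome bases. Near snoRNA genes the shares were 0.903% and 2.87% (Fisher's exact test, adjusted p = 1.6e-06), and near genes annotated as ncRNA 17.5% and 22.5% (adjusted p = 4.6e-05). In all 3 classes the weaker share lay between those of the thresholded and the remaining peaks. Among the 391 weaker peaks with a −log10 q of at least 3, none of the 3 differences passed the threshold (Fisher's exact test, adjusted p = 0.62, 0.12 and 0.37). For snRNA genes, which had 5 weaker summits, and lincRNA genes, which had 7, the adjusted p was 0.037 and 0.036 by Fisher's exact test. The snRNA call was lost at a −log10 q of at least 3 and with genes within 500 bp (Fisher's exact test, adjusted p = 1 and 0.073). The lincRNA call was lost at that q limit, with overlapping peaks left out and from either single replicate (Fisher's exact test, adjusted p from 0.066 to 0.66). At miRNA genes the shares were 0.451% of weaker (11 summits) and 0.311% of thresholded summits, and at piRNA genes 0.944% (23 summits) and 0.660%. These higher weaker shares did not pass the threshold (Fisher's exact test, adjusted p = 0.55 and 0.36).

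Some weaker peaks adjoined stronger ones. In all, 238 of the 2437 (9.77%, exact 95% interval 8.62 to 11.01) overlapped a thresholded interval by at least 1 bp, and 9 of them shared its whole interval as a further summit. Their summits lay 199 to 389 bp from the thresholded summit, with a median of 203 bp. The thresholded partner had a median signal of 222.4, and the weaker peak reached a median of 39.2% of it. The pairs named next were chosen after their values were seen. The strongest such partner, at ftt-2, a 14-3-3 gene, had a signal of 744.0, and the weaker peak 210 bp away had 99.4. Beside K02D3.1 the values were 711.0 and 79.6, and beside gpb-1, a G protein beta subunit gene, 626.5 and 103.8. At each of these 3 the weaker peak had under 20% of its partner's signal. In contrast, 1128 weaker summits (46.3%) lay more than 10 kb from any thresholded summit. The median distance over all members was 8499 bp.

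Counted by gene, 1174 of 19973 protein-coding genes (5.88%) had a weaker summit in the promoter window. Of these, 1055 (5.28% of all genes) had no thresholded summit in the same window. Genes with both made up 10.1% of the genes with a weaker summit and 8.28% of the 1438 genes with a thresholded summit. Of all genes, 7.20% had a thresholded summit, so the 10.1% was above that share, a difference that was not tested. Within 1000 bp of a thresholded summit lay 13.3% of weaker summits, against 4.73% of the genome. With either kind of summit there were 2493 genes. Of 53 gene lists, 45 had at least 1 member with a weaker summit. The counts below stand beside the 5.88% of all protein-coding genes, and the lists were not tested.

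Genes of muscle and of the basement membrane had high shares. Of 52 genes in the list of body wall muscle structure, 17 (32.7%) had a weaker summit in the window and 23 a thresholded one. Only 9 (17.3%) had a weaker and no thresholded summit. The 17 include myo-1 and myo-2, which are in the pharynx list too, and unc-52, which is in the basement membrane list too. For lev-11, which encodes tropomyosin, the weaker summit had a pooled signal of 107.9, with 51.1 and 59.8 in replicates 1 and 2. For unc-78, which encodes an actin-interacting protein, it was 106.7 with 46.9 and 56.0. For ttn-1, which encodes a titin-like protein, it was 102.3 with 60.8 in replicate 1 and no overlapping peak in replicate 2, so that member was seen in 1 library. At unc-112, the kindlin gene of the dense body, the weaker peak of 103.5 adjoined a thresholded peak. The basement membrane list had 6 of 23 genes (26.1%) with a weaker summit, none of which had a thresholded one. They included epi-1 (laminin alpha) at 101.6, unc-52 (perlecan) at 97.8, him-4 (hemicentin) at 84.2 and mig-6 (papilin) at 80.97. At epi-1 the replicates had 38.4 and 62.9, and at unc-52 39.95 and 56.2, so replicate 2 was higher at both.

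Housekeeping lists followed. Heat shock and chaperone genes had 10 of 39 members (25.6%) with a weaker summit, among them both sensor kinases of the unfolded protein response, ire-1 (111.3) and pek-1 (111.2), bag-1 (106.1, with a thresholded summit too) and hsb-1, whose protein binds the heat shock factor (100.1). At hsb-1 the replicates had 72.0 and 26.4. Of the vacuolar ATPase genes 5 of 21 (23.8%) had a weaker summit, led by unc-32 at 112.2, and none of these 5 had a thresholded one. Of the translation factor genes it was 7 of 40 (17.5%), led by ifg-1 at 97.6 and eif-3.H at 97.6. Of the proteasome genes it was 5 of 33 (15.2%), led by rpt-2 at 104.2 and rpt-3 at 97.9, subunits of the regulatory base. Of the mitochondrial ribosomal protein genes it was 9 of 70 (12.9%), led by mrps-34 at 106.5.

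Cytosolic ribosomal protein genes stood mostly on the other side of the threshold. In the large subunit 8 of 48 (16.7%) had a weaker summit and 26 a thresholded one, and in the small subunit 3 of 31 (9.68%) and 22. The weaker ones included rpl-31 (108.4), rpl-25.2 (103.3), rps-27 (111.3), rps-8 (91.2) and rps-25 (78.9). At rps-8 the replicates had 27.8 and 59.0. All 5 CCT chaperonin genes with a promoter summit had a thresholded one, and 0 of 8 had a weaker one. SR splicing factor genes had 2 of 8 weaker, with rsp-3 at 100.1, and 5 thresholded. Of the chromatin regulator genes 10 of 51 (19.6%) had a weaker summit, led by utx-1, an H3K27 demethylase gene (105.9), isw-1, a chromatin remodeller gene (104.2), and set-2, an H3K4 methyltransferase gene (104.2).

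Signalling lists differed in how many members had each kind of summit. In the Notch list 4 of 26 genes (15.4%) had a weaker summit and 0 a thresholded one. By role these were the ligand gene apx-1 (85.7), the ADAM protease genes adm-4 (91.1) and sup-17 (90.4), and the presenilin gene sel-12 (74.9). At apx-1 the replicates had 44.7 and 21.7, at adm-4 33.95 and 54.04. In the list of EGF receptor, Ras and MAPK genes 5 of 33 (15.2%) had a weaker and 3 a thresholded summit. They included the adaptor gene sem-5 (108.8) and sur-2 (102.2), a Mediator subunit gene. In the TGF-beta list 3 of 21 (14.3%) had a weaker and 2 a thresholded summit, the weaker ones at the type I receptor gene daf-1 (92.6), the SMAD gene daf-3 (96.9) and sma-9 (77.0). In the Wnt list 3 of 32 (9.38%) had a weaker and 3 a thresholded summit, the weaker ones at the Frizzled gene lin-17 (102.0), mom-1 (92.99, also with a thresholded summit), whose product modifies Wnt proteins, and the beta-catenin gene wrm-1 (77.1).

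Among tissue lists, pan-neuronal and synaptic genes had 6 of 39 (15.4%) with a weaker summit, led by ric-19 (111.2), unc-18 (104.4), tom-1 (99.9) and the synaptobrevin gene snb-1 (87.4). Axon guidance genes had 5 of 35 (14.3%), with unc-115 (109.6, also with a thresholded summit), the semaphorin gene smp-2 (106.4), the syndecan gene sdn-1 (103.1) and the netrin receptor gene unc-40 (102.4). Lists for tissues in which CEH-18 is known to act had few genes with a weaker summit in number, at shares on both sides of the 5.88% of all genes. Of epidermal transcription factor genes 1 of 24 (4.17%) had a weaker summit, the GATA factor gene elt-6 at 112.2 with 55.4 and 53.4 in the replicates. Of the epidermal junction genes it was 4 of 33 (12.12%), with unc-70 (106.9, beside a thresholded summit in its window), let-413 (86.1), erm-1 (76.2) and zoo-1 (73.6), and of the somatic gonad and sheath genes 4 of 35 (11.4%), led by apx-1 and kin-2 (85.5). Of the nuclear hormone receptor genes 16 of 269 (5.95%) had a weaker summit, near the share of all genes, with nhr-88 highest at 95.7. Serpentine receptor genes named sr had 7 of 1163 (0.602%), F-box genes 2 of 315 (0.635%) and C-type lectin genes 3 of 237 (1.27%). Histone genes had 1 of 59, hil-7. 

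The other lists are given by their counts of genes with a weaker summit. Tubulin genes had 3 of 16, with the gamma-tubulin gene tbg-1 at 101.3, rab genes 3 of 20, pharynx genes 4 of 29 and ubiquitin machinery genes 5 of 37. Sex determination and dosage compensation genes had 4 of 25, insulin and FOXO pathway genes 3 of 23 (with 4 thresholded), kinesin genes 2 of 17 and aminoacyl-tRNA synthetase genes 3 of 32. Homeobox ceh genes had 5 of 63, with ceh-100 highest at 100.6. Near or below the share of all genes were the excretory (2 of 27), germline and maternal (3 of 56), heterochronic (1 of 19, alg-1, an Argonaute gene, with 7 thresholded), muscle transcription factor (1 of 23), innexin (1 of 25), ciliary (2 of 52), hedgehog-related (2 of 85), intestine (1 of 43), neuropeptide (3 of 140) and neuronal transcription factor (1 of 50) lists. Lists with 0 weaker summits in the window were the CCT, cytochrome P450, UDP-glucuronosyltransferase, neurotransmitter, glia, cuticle, Hox and POU genes.

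Several genes held many weaker summits over a span of the body and the upstream intergenic sequence. The gene egl-27, which encodes an MTA-like nuclear protein, had 9 beside 8 thresholded summits in a span of 31.5 kb. The TFEB-like gene hlh-30 had 7 beside 5, and bcl-11, mbk-2 and dmd-6 had 6 each beside 4, 1 and 6. At mbk-2, a DYRK kinase gene, 6 of the 7 summits in a span of 39.98 kb were thus weaker ones. At kin-36 and at the potassium channel gene kvs-5, which were singled out after their values were seen, there were 5 weaker and 0 thresholded summits. These counts are not corrected for length.

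Nearly every weaker peak was found again in both replicates' own lists, and since the pooled list was made from both, the lists share reads. Replicate 1's list, of exactly 30000 peaks, overlapped 2423 (99.4%) and replicate 2's list, of 21337 peaks, 2424 (99.5%). Both overlapped 2410 (98.9%) and none of the 2437 lacked both. Over the whole pooled list the shares were 83.5% for replicate 1 and 71% for replicate 2, and for peaks with −log10 q under 2 they were 80.1% and 64.9%. The replicate lists covered 13.2% and 9.24% of the genome. With a stricter match, a replicate summit within 100 bp of the pooled summit, 2159 weaker peaks (88.6%) were found in both, against 97.01% of thresholded peaks. Peaks without an overlap, named after their values were seen, included oga-1 (pooled 105.6, absent from replicate 1) and W01H2.2 and gut-2 (106.7 and 106.5, absent from replicate 2).

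Passing the q limit in each replicate alone was less common. Of the weaker peaks, 1790 (73.5%) were overlapped by a replicate 1 peak with −log10 q of at least 2, 1315 (53.96%) by such a peak of replicate 2, 893 (36.6%) by both and 225 (9.23%) by neither. These counts include the 238 members that overlap a thresholded interval, of which 234 were overlapped by both. Of the 2199 members clear of thresholded intervals, 659 (29.97%) were. Of the thresholded peaks, 98.4% were overlapped by both. The 2 lists differed in scale, since the highest −log10 q was 3.41 in replicate 1 and 2.38 in replicate 2, so counts by q are not comparable between replicates. Among weaker peaks of the upper band 67.4% passed in both, and in the lower band 18.3%, with members beside thresholded peaks included.

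The level in each replicate had to be read apart for members beside a thresholded peak, because the strongest overlapping replicate peak was then often that neighbour. Over the 238 such members the replicate signals reached 397.7 and 390.7. Over the other 2199, those found in both replicates (2172) had 15.1 to 78.7 in replicate 1, median 44.95, and 16.6 to 85.4 in replicate 2, median 44.3. The medians were close, and without the 238 the ranges stayed below the thresholded medians of 89.8 and 91.4 in their upper limits. After division of each replicate by its median, 91.6% were within 2-fold between replicates, 86 were more than 2-fold higher in replicate 1 and 97 in replicate 2. The SD of the log2 ratio was 0.58. Spearman's rho between the replicates was −0.27 over these 2172 peaks, as a description: both values enter the pooled signal, which the choice held in a narrow band.

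**Figure D3:**
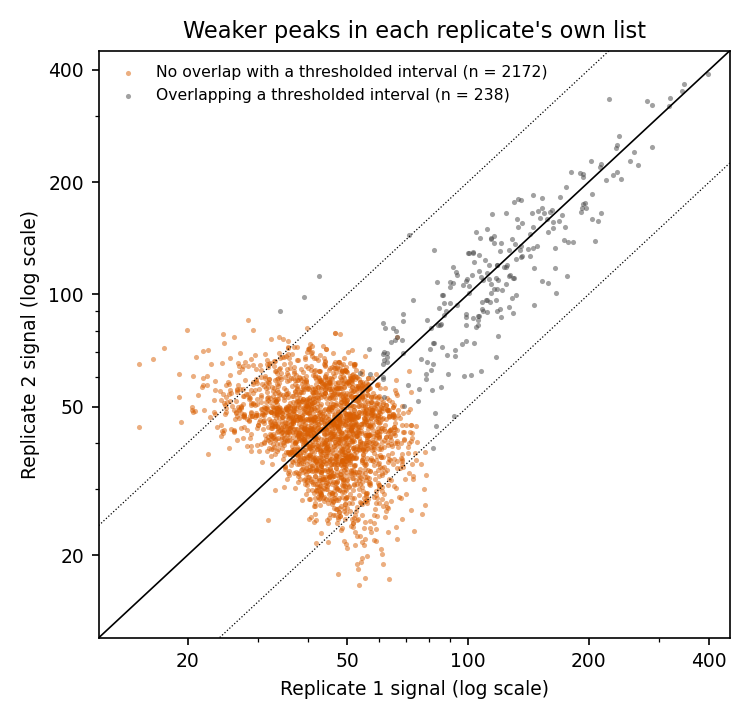
Signal in replicate 2 against replicate 1 (log scales) for the weaker peaks overlapped by a peak in both replicate lists; orange, 2172 peaks clear of thresholded intervals; grey, 238 that overlap one; solid line, equal signal; dotted lines, a 2-fold difference. The orange points form a cloud with no rise along the line, none above 85.4 in either replicate, and the grey points extend along the line.

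The direction of the replicate difference went with location. After the same division by the medians, 42.3% of the 827 promoter members clear of thresholded intervals were higher in replicate 1, as were 54.05% of the 531 intronic, 56.1% of the 579 intergenic and 61.5% of the 179 coding-exon members. The 10 most unequal members, named after their values were seen, fell on different sides by location. Those far higher in replicate 2 were upstream of mau-2 (15.1 and 64.99 in replicates 1 and 2), rbg-2 (17.4 and 71.8) and tin-13 (19.9 and 80.4), in an intron near mdl-1 (16.39 and 67.1) and at the start of daf-15 (20.99 and 68.1). Of these, 4 lay in promoter windows. Those far higher in replicate 1 were near Y17D7C.6 (63.5 and 17.3), in a coding exon of K08F4.5 (61.3 and 18.9) and in introns near faxc-1, F55C7.2 and C02B10.3. None of these lay in a promoter window. With 1 library per replicate, a difference between libraries cannot be told apart from one between cultures.

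In sequence, the weaker summits carried the same element as the thresholded ones at a lower share. GAGAGA on either strand lay within 75 bp of 841 weaker summits (34.5%, exact 95% interval 32.6 to 36.4), against 7.35% of windows of the same width 500 bp to either side, a ratio of 4.70 (exact McNemar test using the flank on the lower-coordinate side, adjusted p = 2.0e-116 over 12 motifs). Thresholded summits had it in 45.2%, more than weaker ones (Fisher's exact test, adjusted p = 1.9e-13). That call was lost among the 391 weaker peaks with a −log10 q of at least 3 (37.9%, Fisher's exact test, adjusted p = 0.082). GAGAGA was in 14.3% of the remaining summits, 7.63% of genome windows of 151 bp and 12.05% of such windows centred 150 bp upstream of all protein-coding 5′ ends. The weaker share fell from 37.1% in the upper band to 32.96% in the lower band, both above the 14.3% of all the remaining peaks, whose signal ran from 72.55 down to 23.03. Peaks just past the q limit were not measured apart. Around the summit the element was most frequent in the central 50-bp bins, at 15.9% and 14.9%, and fell to 2.63% at 450 to 500 bp upstream in coordinate.

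**Figure D4:**
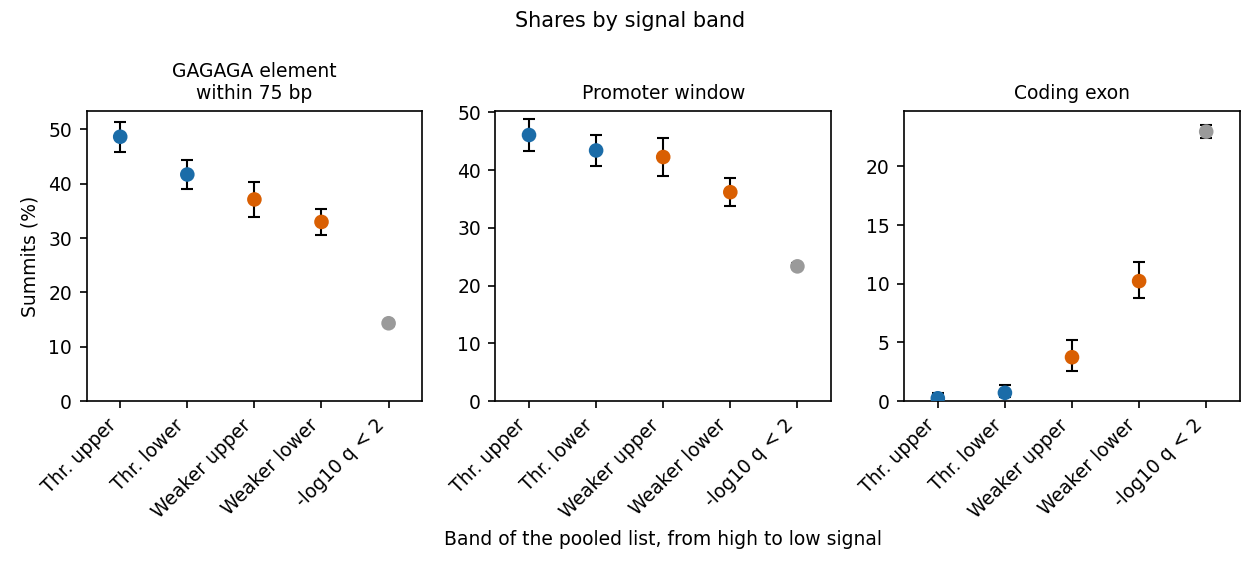
Share of summits (%) with GAGAGA within 75 bp, in a promoter window and in a coding exon, over 5 bands of the pooled list from high to low signal: thresholded in 2 parts by signal (blue), weaker at or above and below a signal of 92.7 (orange) and −log10 q under 2 (grey); bars are exact 95% intervals. GAGAGA falls from 48.6% to 14.3% and coding exons rise from 0.233% to 22.97%.

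The element was unevenly spread over locations. It was at 39.5% of weaker intergenic summits, 38.7% of intronic ones, 33.3% of those in promoter windows and 10.5% (20 of 190) of those in coding exons. On X it was at 32.4% and on the autosomes at 35.1%. Of the 238 weaker peaks overlapping a thresholded interval 28.6% had it, and of the others 35.2%. Coding-exon members were thus the group with the lowest share, below the 14.3% of all peaks under the q limit.

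**Figure D5:**
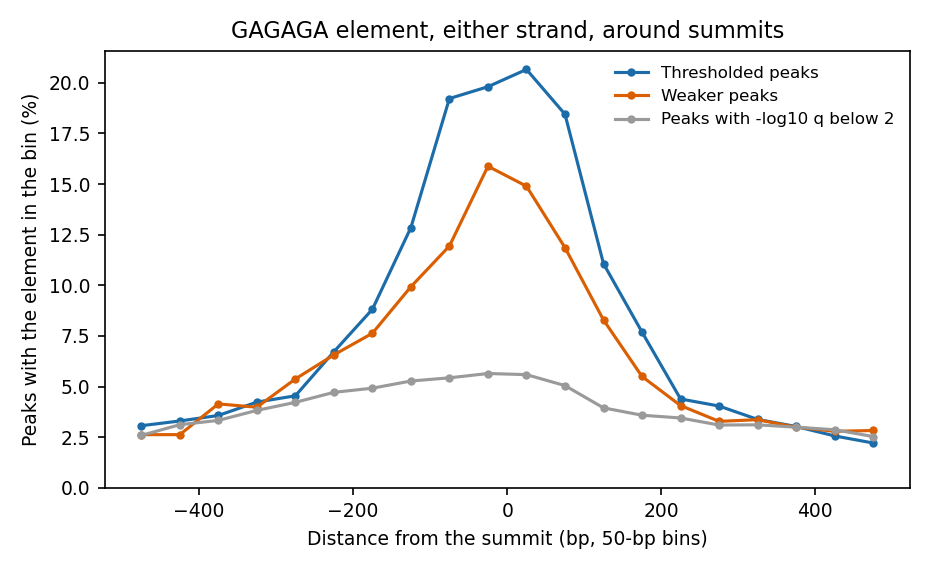
Percentage of peaks with GAGAGA on either strand in each 50-bp bin, against distance of the bin from the summit in bp, for thresholded, weaker and remaining pooled peaks. The weaker curve peaks at 15.9% beside the summit, between the thresholded curve at 20.7% and the remaining peaks at 5.65%.

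Of the other 11 motifs, 3 differed between weaker summits and flanks. GGGCGG, a GC box, was at 8.41% of summits and 2.75% of flanks (exact McNemar test, adjusted p = 1.0e-15). CANNTG, the E-box of helix-loop-helix proteins, was at 51.3% and 42% (exact McNemar test, adjusted p = 2.4e-09). TAATTA, a core of many homeodomain sites, was rarer at summits, at 2.91% against 7.51% (exact McNemar test, adjusted p = 5.7e-16), and was more frequent than at thresholded summits, at 1.51% (Fisher's exact test, adjusted p = 0.0057). That last call was lost without replicate 2, at 2.27%, and at a −log10 q of at least 3, at 2.81% (Fisher's exact test, adjusted p = 0.27 and 0.26). At the same q limit the difference from flanks was lost too (exact McNemar test, adjusted p = 0.11). The octamer ATGCAAAT was at 34 weaker summits (1.40%) and 1.07% of flanks, which did not differ past the threshold (exact McNemar test, adjusted p = 0.28), and at 0.854% of thresholded summits (Fisher's exact test, adjusted p = 0.22). It was in 1.30% of genome windows. Median GC content was 45.7% at weaker summits and 34.4% in their flanks, 47.7% at thresholded summits and 42.4% at the remaining peaks, and its part in the motif differences was not tested. A match describes letters in the window, and is not a bound site.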

How the data were processed

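Chromatin immunoprecipitation of tagged CEH-18 was analysed from peak lists of 2 biological replicates in 1 group. Per the labels, separate lists exist for each replicate, for both pooled and for the IDR step, on ce10 and ce11. Aligner, peak caller and depth: not given in the sources used here. Peak signal is a deposited value of unstated scale, compared only within a list. Selection used the deposited −log10 q (at least 2) and absence from the thresholded list, so tests were confined to position and sequence. Members and gene lists were chosen with earlier results of these data known. It is unstated whether the replicates were separate cultures.

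Annotation came from Ensembl 115 on WBcel235, the build of ce11. A summit in several classes was put in the first of promoter window, untranslated 5′ region, coding exon, untranslated 3′ region, intron and intergenic. A replicate value is that of the strongest replicate peak overlapping by 1 bp or more. The gene named for an intronic peak is that with the nearest protein-coding 5′ end, and need not hold the intron. The 12 motifs, searched on both strands, were the element GAGAGA, the GC box GGGCGG, the E-box CANNTG, the octamer ATGCAAAT and its part ATGCA, the homeodomain core TAATTA, the forkhead site TGTTTAC, the T-box site AGGTGTGA, and degenerate forms of the octamer, a further POU site, the GATA factor site and the AP-1 site. Shares were compared by two-sided Fisher's exact tests, and with flanks by exact McNemar tests, each adjusted by Benjamini-Hochberg over its family, with a threshold of 0.05. Intervals are exact binomial at 95% and cover counting only. Genes named by rule were the nearest to the 20 strongest and 5 weakest members, up to 4 per list, the 5 with most summits, ceh-18, ceh-6, unc-86 and unc-119. The tests were checked on simulated data. Alternatives varied the q limit, overlapping peaks, the replicate list, the build, the windows and the match. Python 3.11.15, numpy 2.4.6, pandas 2.3.3, scipy 1.17.1 and matplotlib 3.10.9 were used.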

Additional observations from a re-analysis of the deposited data

How the results depend on the processing

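Of the 2437 weaker peaks, 391 had a −log10 q of at least 3, the ce10 lists gave 1526, and the matching sets from single replicates held 1215 to 2203 peaks. The 391 were not simply the strongest members, since −log10 q did not fall steadily with signal. It was 2.925 at the ceh-22 summit of signal 103.8, and reached 3.01 among members with a signal below 92.7. The 1174 genes with a weaker summit became 222 at a −log10 q of at least 3, 721 to 859 from single replicates, and 2079 when each summit was given to its nearest 5′ end. With a −log10 q of at least 3, several differences from thresholded summits no longer passed the threshold. They were the promoter share (42.5%, adjusted p = 0.71 by Fisher's exact test), the share near tRNA genes (4.86%, adjusted p = 0.62) and GAGAGA (37.9%, adjusted p = 0.082), and those near snoRNA, snRNA, ncRNA, lincRNA genes, in untranslated 3′ regions and of TAATTA, with fewer members tested. At that limit the share in 2 or more promoter windows was 13.8%, above the thresholded 13.0%. From single replicates, leaving out each in turn, the promoter share ran from 32.2% to 45.5%, the share in 2 or more windows from 7.04% to 14.2%, and the intergenic share from 24.8% to 26.2%, where the lowest, from replicate 2's list, differed from thresholded summits (Fisher's exact test, adjusted p = 0.016). The causes of these changes were not tested. Presence in a replicate's list fell to 94.6% and 93.8% with summits within 100 bp, and to 98.8% and 98.7% with reciprocal overlap of at least 50%. The coding-exon share and GAGAGA kept their direction from thresholded summits under the alternatives run. Keeping 1 summit per distinct interval left 2437 peaks. Depth is unknown. No paired analysis was possible because the 2 replicates form 1 group.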
